A study of Mus musculus with 6 samples.

Results

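The genes described here encode enzymes and 1 helper protein that modify and crosslink collagen: the lysyl oxidases Lox, Loxl1, Loxl2, Loxl3 and Loxl4, the proteinase enhancer Pcolce, the lysyl hydroxylases Plod1 and Plod2, and P4ha1 and P4ha2, the catalytic subunits of prolyl 4-hydroxylase. These 10 genes share this function and were chosen with earlier results of these data known, and each was read through every probe set annotated to it alone. Such probe sets existed for 9 of the 10 genes, 17 in all, out of 45101 probe sets and 18193 named genes on the array. Both probe sets that match Loxl2 are annotated to the gene model Gm21451 as well, so no value is given for Loxl2. RNA was measured on 6 mouse arrays: 2 of dendritic cells grown from bone marrow (BMDC), 2 of cultured follicular dendritic cells (FDC), 1 of FL-Y, an FDC-like cell line transformed with SV40, and 1 of the same line after an antibody had engaged its lymphotoxin beta receptor. The labels give no strain, age, culture time, antibody dose or number of animals, and do not say whether paired arrays came from separate cultures, so each p-value reflects the scatter of these 4 arrays alone, and that scatter may be technical. FL-Y and its activated form are 1 line with 1 array each, so their differences have no replicate check.

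Collagen chains are modified inside the cell before they fold. Prolyl 4-hydroxylases stabilise the triple helix, and lysyl hydroxylases prepare lysines for sugar addition and crosslinking. Outside the cell, proteinases of the Bmp1 family trim the procollagen ends, with Pcolce speeding removal of the C-terminal end, and lysyl oxidases convert lysines of collagen and elastin into reactive aldehydes that form crosslinks. FDC are stromal cells of the lymphoid follicle, whereas BMDC are antigen-presenting cells of the blood lineage.

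Each array carried 1 linear signal per probe set, with a median signal between 47.9 (activated FL-Y) and 84.4 (BMDC array 2). The 20th percentile of each array, between 8.7 and 15.4 signal units, is used as a mark of background and is not a limit of detection. The deposited signals correlated across probe sets on the log2 scale at r = 0.907 between the FDC arrays and 0.92 between the BMDC arrays. Between the 2 FDC arrays 20.3% of genes differed by 1 or more on the log2 scale, among them 1 of the 8 members that passed the filter (Plod2, -1.08), and between the 2 BMDC arrays 15.1%, among them 1 of 7 (Lox, 1.07). The labels' cell types were read through marker lists. Of 15 dendritic cell and macrophage genes 14 were called lower in FDC, with summed signals of 5399 and 3801 on the FDC arrays against 364900 and 268400 on the BMDC arrays. Of 15 fibroblast genes 6 were called higher and 1 lower in FDC. Of 12 FDC marker genes 0 were called higher and 3 lower (Fcgr2b, Clu and Mfge8), with a median difference of 0.15. The adhesion molecule gene Vcam1 read 6959 and 5764 in FDC and 108.4 and 874.7 in BMDC (4.26, limma adjusted p = 0.0566), the prion protein gene Prnp differed by 2.50 (limma adjusted p = 0.0615) and the chemokine gene Cxcl13 by 2.48 (limma adjusted p = 0.331). Cr2, a complement receptor that marks FDC in tissue, read 119.5 on FDC array 1 and 4.1 on FDC array 2. Lists of other cells were read as well. Of 9 mast cell genes 4 were called higher in FDC than in BMDC (Tpsab1, Tpsb2, Mcpt4 and Cma1) and 0 lower. Without a call, Cpa3 (1.01) and Fcer1a (0.81) were higher, and Kit (-0.84), Ms4a2 (-1.12) and Hdc (-2.00) lower. The mast cell list summed to 7827 and 14140 in FDC, 6087 and 1394 in BMDC and 330.7 in FL-Y. Of 9 T cell genes 3 were called higher (Cd3d, Cd3g and Cd8b1) and 0 lower. Their list summed to 2969 and 1767 in FDC, 774.3 and 463.4 in BMDC and 367.1 in FL-Y. Cd3g, Cd8b1 and the mast cell gene Mcpt4 passed the filter on low values (46.4) through the FDC arrays, both BMDC arrays lying under it. Beside these marker counts, 5.87% of all genes tested were called higher in FDC and 5.4% lower. The 12 pan-leukocyte genes summed to 8487 and 6910 in FDC, 213800 and 198200 in BMDC and 569.1 in FL-Y. The part of these cells in the results below was not tested, and a change in the share of a cell type cannot be told apart from a change of RNA per cell.

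Most of the collagen-modifying genes were expressed far more highly in FDC than in BMDC. Of the 9 genes measured, 7 were called higher in FDC (Pcolce, Lox, Loxl1, Plod2, P4ha2, Loxl3 and Plod1), 0 were called lower, and P4ha1 and Loxl4 did not pass the test. Across all 12750 genes tested, 5.87% were called higher and 5.4% lower, with limma and a Benjamini-Hochberg adjusted p under 0.05. The median log2 difference, FDC minus BMDC, was 5.89 over the 9 genes and -0.03 over all genes tested. Loxl1 and Pcolce passed the filter on low values (a mean signal above 46.4) through the FDC arrays, since both BMDC arrays lay under it. The FDC and BMDC arrays did not overlap for 8 of the 9 genes, Loxl4 being the exception; of all genes tested, 28.8% had both FDC arrays above both BMDC arrays. Without any 1 of the 4 arrays, 6 genes were called higher, the lost gene being Plod1 each time.

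**Figure D1:**
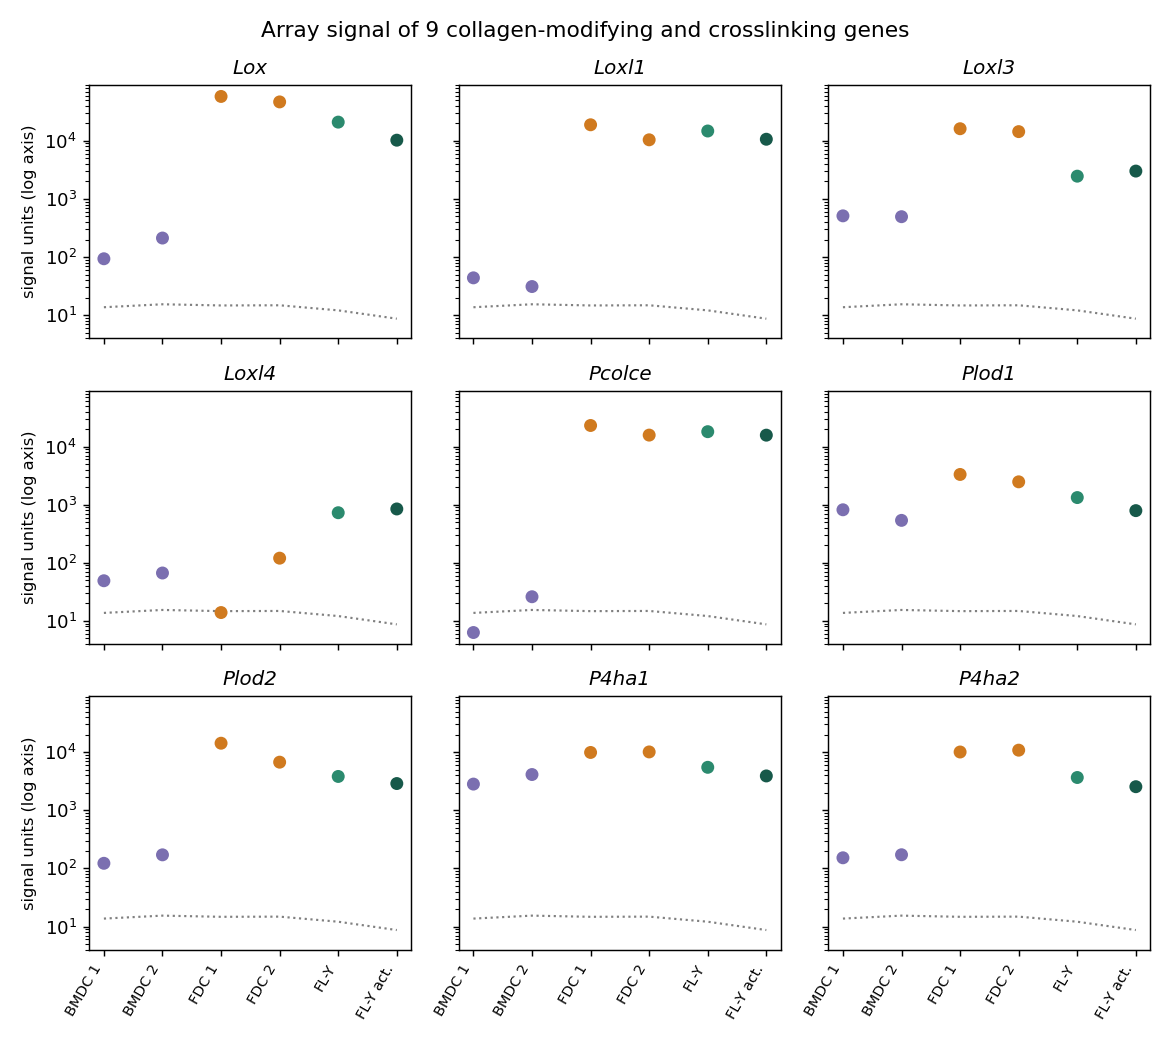
Signal of each of the 9 genes on the 6 arrays, on a log axis, read by the probe set with the highest mean; each point is 1 array, and the dotted line is the 20th percentile of that array. The FDC points lie above the BMDC points in every panel except that of Loxl4, where the 2 FDC arrays stand at 13.9 and 119.9 and the FL-Y arrays above both.

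Prolyl 4-hydroxylase is a tetramer of catalytic alpha subunits and the protein disulphide isomerase P4hb, and its 2 main alpha subunits differed by unequal amounts. P4ha2 read 152.4 and 171.9 in BMDC and 10077 and 10836 in FDC. The groups were far apart and each pair of arrays close together, giving a mean of 162.2 ± 13.8 (SD, n = 2) in BMDC and 10457 ± 537 (SD, n = 2) in FDC. The log2 difference was 5.89 ± 0.37 (SE; limma adjusted p = 0.00302), with 5.92 for array 1 of each group and 5.87 for array 2.

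P4ha1 was far above background in BMDC too, at 2826 and 4128 on its brighter probe set, against 9896 and 10105 in FDC. Both FDC arrays were higher than both BMDC arrays, but the log2 difference of 1.55 ± 0.40 (SE) missed the threshold (limma adjusted p = 0.0839), as did the 1.72 ± 0.43 (SE) of the dimmer probe set (limma adjusted p = 0.0741). With a larger offset P4ha1 was called higher (1.54, limma adjusted p = 0.045), and so was the mean of its probe sets (1.63, limma adjusted p = 0.0414); its adjusted p ranged from 0.0414 to 0.32 over 12 alternatives. Probe sets differ in brightness, so only the change of a ratio between them can be read. The log2 P4ha2 to P4ha1 ratio within an array was -4.09 and -4.48 in BMDC and 0.03 and 0.10 in FDC, a change of 4.35. The 2 groups did not overlap, and the exact two-sided permutation p of 0.333 is the smallest that 2 arrays against 2 can give.

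The promoter of P4ha2 and the start-proximal stretch of P4ha1 are shown because these subunits serve the same step and moved by unequal amounts. Both genes belong to the textbook targets of the hypoxia-inducible factors, whose binding core is ACGTG or GCGTG. Only the ACGTG form was searched, on both strands, and is marked in capitals. The GCGTG form was neither searched nor marked, so the counts below say nothing about it. RefSeq promoters (GRCm38.p6) were at hand for 5 of the 10 genes: Plod1, Pcolce, P4ha1, P4ha2 and Loxl4. In the 250 bases before the start site ACGTG occurred 1 time in P4ha2, beginning 78 bases before the start. It occurred 1 time in P4ha1, as its reverse complement CACGT, 16 bases before the start, and 0 times in Plod1, Pcolce and Loxl4. ACGTG on either strand is found in 16.6% of all 32851 promoter windows of this length, and a match is not evidence of binding. The P4ha2 window is chr11:54100674-54100923 on the plus strand. The P4ha1 stretch, chr10:59323266-59323295 on the plus strand, is cut to 30 bases because a longer RefSeq transcript begins upstream of it.
P4ha2: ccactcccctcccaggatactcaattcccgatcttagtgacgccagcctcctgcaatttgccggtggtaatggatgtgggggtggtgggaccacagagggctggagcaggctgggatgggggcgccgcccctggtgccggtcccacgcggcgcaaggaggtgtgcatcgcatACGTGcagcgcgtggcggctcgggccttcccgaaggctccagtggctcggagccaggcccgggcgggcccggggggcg
P4ha1: ggtgtgacagagcgCACGTagcgagggctg

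Other transcripts known to respond to hypoxia were read beside them. Of 19 tested genes of that list 1 was called higher in FDC and 1 lower, with a median difference of -0.13. The peptide hormone gene Adm rose by 6.92 on the log2 scale (limma adjusted p = 0.00303), and the carbonic anhydrase gene Car9 fell by 2.10 on the log2 scale (limma adjusted p = 0.0449), a call lost without any 1 of the arrays (limma adjusted p up to 0.18). The glycolytic genes Pgk1 and Ldha had differences of -0.02 and -0.10. The angiogenic factor gene Vegfa read 2378 on FDC array 1 and 12159 on FDC array 2, and 543.9 and 1390 on the BMDC arrays. Between FDC arrays 1 and 2 Adm went the other way (13481 and 7759), and Pgk1 was close (28678 and 32347). Of the same list, Hk2 (1520 and 6105), Slc2a1 (4088.5 and 10466.5) and Ddit4 (1202 and 2579) read higher on FDC array 2. Egln1 (2900 and 2084) and Pfkl (7199 and 5040) read lower there. From BMDC array 1 to 2 Hk2 (3558 and 5017), Slc2a1 (6872 and 9428), Ddit4 (207.4 and 589.3) and Egln1 (1549 and 2540) rose. Pfkl fell (5223 and 4779). The cause was not tested.

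Both lysyl hydroxylases were higher in FDC, Plod2 by the larger amount. Plod2, the enzyme of the collagen telopeptides, had signals of 122.5 and 171.3 in BMDC and 14268 and 6736 in FDC on its brighter probe set. FDC array 1 lay well above FDC array 2, and both stood far above BMDC. The log2 difference was 5.95 ± 0.51 (SE; limma adjusted p = 0.00442), with 6.71 for array 1 and 5.19 for array 2. The other probe set of Plod2 had a difference of 4.69 ± 0.42 (SE; limma adjusted p = 0.00471).

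Plod1, which hydroxylates lysines of the helix, was at 815.4 and 536 in BMDC and 3305 and 2468 in FDC. Both FDC arrays exceeded both BMDC arrays, and the difference was 2.09 ± 0.43 (SE; limma adjusted p = 0.0451). This call was lost whichever of the 4 arrays was left out, at 1.79 to 2.38 with limma adjusted p between 0.0776 and 0.183, and over all 12 alternatives the adjusted p ranged from 0.0212 to 0.183. A dim second probe set of Plod1, at 52.7 and 41.9 in BMDC and 128.3 and 94.9 in FDC, was not called (1.03 ± 0.39 SE, limma adjusted p = 0.197). The log2 Plod2 to Plod1 ratio within an array was -2.60 and -1.57 in BMDC and 2.11 and 1.44 in FDC, a change of 3.86 with no overlap (exact two-sided permutation p = 0.333, the smallest possible).

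Pcolce was near background in BMDC and strong in FDC. Its brighter probe set had signals of 6.3 and 26.0 in BMDC and 23003 and 15720 in FDC. BMDC array 1 lay under the background mark, so the size of the difference, 9.37 ± 0.50 on the log2 scale (SE; limma adjusted p = 0.00264), depends on the offset and ran from 8.14 to 10.54 over 12 alternatives. The second probe set, at 29.4 and 5.7 in BMDC and 10564 and 6621 in FDC, had a difference of 8.15 ± 0.54 (SE; limma adjusted p = 0.00303). Both probe sets were higher on each FDC array than on either BMDC array. Both passed the filter (46.4) through the FDC arrays only, their BMDC signals lying under it.

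Lox, the founding lysyl oxidase, was higher in FDC on all its probe sets. On its representative probe set it had signals of 93.5 and 212.5 in BMDC and 58046 and 46763 in FDC, the difference being 8.38 ± 0.50 (SE; limma adjusted p = 0.00272), with 9.07 for array 1 and 7.69 for array 2. A further probe set gave 32.2 and 154.9 against 50736 and 49228, a difference of 9.14 ± 0.68 (SE; limma adjusted p = 0.00341). The last and dimmest, at 6.7 and 9.5 in BMDC and 118.9 and 111.1 in FDC, did not pass the filter and was not tested. On all 3 probe sets the FDC and BMDC arrays did not overlap.

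Loxl1, an oxidase needed for elastic fibres, had signals of 43.9 and 31.1 in BMDC and 18895 and 10415 in FDC. The groups stood far apart, with a difference of 8.10 ± 0.46 (SE; limma adjusted p = 0.00264). Its dimmer probe set went from 3.2 and 4.0, under the background mark on both BMDC arrays, to 637.7 and 339.4. The difference was 4.75 ± 0.45 (SE, limma adjusted p = 0.00539), and its size depends on the offset. This probe set too passed the filter (46.4) through the FDC arrays only. Loxl3, a lysyl oxidase with scavenger receptor domains, was clearly above background in BMDC, at 512 and 495.2, and stood at 16161 and 14407 in FDC. Its paired arrays lay close together, and the difference was 4.88 ± 0.37 (SE; limma adjusted p = 0.00348). The log2 Lox to Loxl3 ratio within an array went from -2.29 and -1.17 in BMDC to 1.84 and 1.70 in FDC (exact two-sided permutation p = 0.333), whereas the Lox to Loxl1 ratio, at 0.89 and 2.32 in BMDC and 1.62 and 2.17 in FDC, overlapped between the groups.

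**Figure D2:**
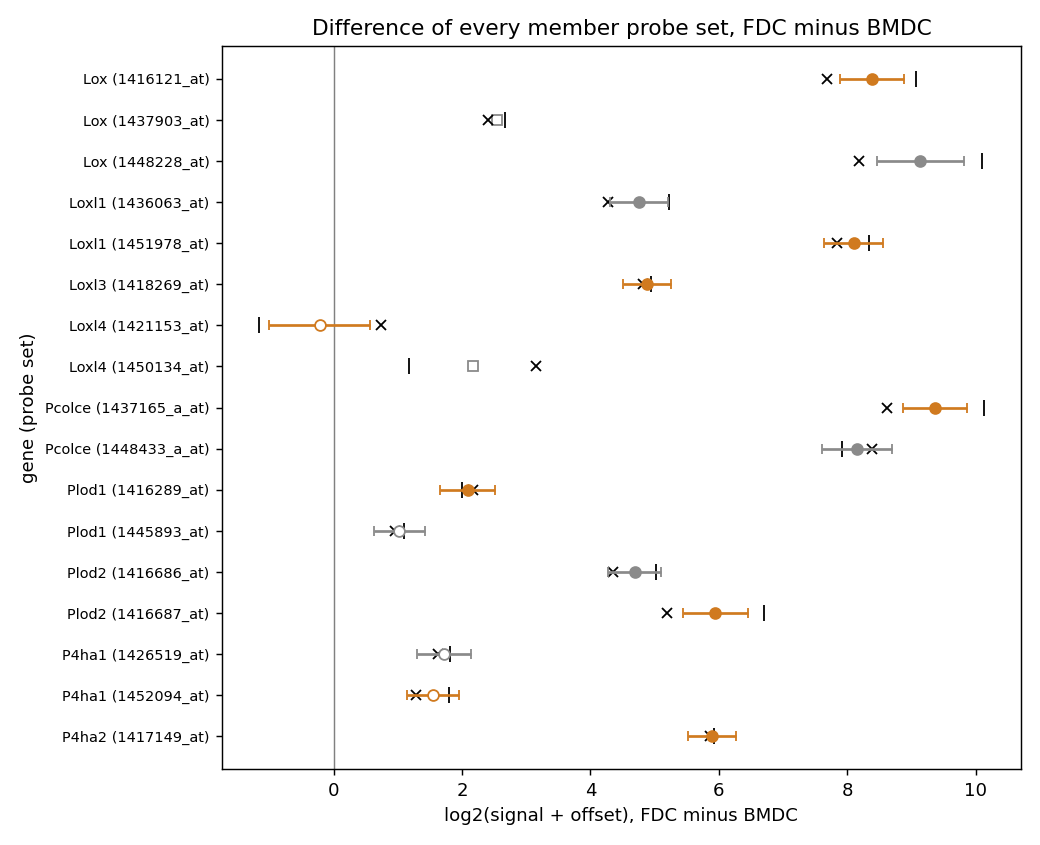
Log2 difference, FDC minus BMDC, for all 17 probe sets of the 9 genes, with bars for the SE from limma; orange marks the representative probe set of a gene, filled circles are called (adjusted p under 0.05), open circles tested and not called, and open squares not tested. Vertical ticks are the difference for array 1 of each group and crosses that for array 2; the 2 tests of P4ha1 stand at 1.55 and 1.72, well left of P4ha2 at 5.89.

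Loxl4, another lysyl oxidase with scavenger receptor domains, stood apart from the other lysyl oxidases measured. It had signals of 49.0 and 66.6 in BMDC, 13.9 and 119.9 in FDC, 725.8 in FL-Y and 842.2 in activated FL-Y. FDC array 1 lay under the background mark and FDC array 2 above both BMDC arrays, so the groups overlapped. The FDC minus BMDC difference was -0.22 ± 0.79 (SE; limma adjusted p = 0.902), and without FDC array 1 it was 0.91 (limma adjusted p = 0.404; range over 9 alternatives 0.404 to 0.991). Without FDC array 2 the gene did not pass the filter and had no fit; array 1 of each group alone differed by -1.17. The second probe set, at 6.8 and 8.9 in BMDC and 33.3 and 191 in FDC, was too dim to be tested and read 360.4 in FL-Y and 395.9 after activation. The 2 probe sets disagree on the sign of the FDC minus BMDC difference and share the order of FL-Y above both FDC arrays. The 250 bases before its RefSeq start (GRCm38.p6, chr19:42612807-42613056, minus strand) are shown because Loxl4 was the only measured member above FDC in FL-Y by 1 or more. The GC box GGGCGG, searched on both strands and present in 32.7% of all windows, occurs 3 times. Neither TATAAA (12.4% of windows) nor the ACGTG form of the hypoxia core occurs. No capitals are used in it.
Loxl4: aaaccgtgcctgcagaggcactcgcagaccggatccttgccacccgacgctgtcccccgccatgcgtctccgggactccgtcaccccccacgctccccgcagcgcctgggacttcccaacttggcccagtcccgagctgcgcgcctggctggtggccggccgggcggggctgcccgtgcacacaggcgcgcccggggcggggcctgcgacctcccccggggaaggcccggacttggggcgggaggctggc

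In FL-Y most of these genes stood between their BMDC and FDC levels. Of the 9 genes, 7 stood above the BMDC mean in FL-Y by 1 or more on the log2 scale and 0 below, beside 18.7% of all genes above and 23.1% below; P4ha1 (0.68) and Plod1 (0.99) fell short of 1. Set against FDC, 5 genes were lower in FL-Y by 1 or more (Loxl3, P4ha2, Plod2, Lox and Plod1) and 1 was higher (Loxl4), where 19.6% of all genes were lower and 13.3% higher. The median of the 9 genes was -1.10 and that of all genes -0.10. These comparisons share their FDC, BMDC or FL-Y arrays and are not independent. When the arrays were rescaled to one median, which moved the median of all probe sets in FL-Y minus FDC from -0.11 to 0.28, only Loxl3 (-2.22) and P4ha2 (-1.10) remained lower by 1 or more. Against FDC array 2 alone 3 genes were lower by 1 or more, because Plod1 (-0.89) and Plod2 (-0.82) lay closer to that array.

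Loxl3 had the largest gap, with 2467 in FL-Y against 16161 and 14407 in FDC, a ratio to the FDC mean of 0.161 and a difference of -2.62. The FL-Y value lay below both FDC arrays and above both BMDC arrays. P4ha2 was at 3669 in FL-Y, a difference of -1.51, and Lox at 20996, a difference of -1.31. The 2 other Lox probe sets, at 16586 and 69.4 in FL-Y, also lay below both FDC arrays.

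Plod2 was at 3824 in FL-Y (-1.36) and Plod1 at 1323 (-1.10), both under either FDC array. Their other probe sets were closer to FDC: that of Plod2 differed by -0.42, and that of Plod1 by -0.07, between the FDC arrays. P4ha1 was at 5493 (-0.86) on its brighter probe set and at 1703 (-1.73) on the other, which in FL-Y was no higher than in BMDC (1396 and 2109). In contrast Loxl1, at 14769, and Pcolce, at 18002, lay between the 2 FDC arrays on their brighter probe sets. The dimmer probe set of Loxl1, at 441.2, also lay between them. That of Pcolce, at 10999, lay above both (10564 and 6621). By the representative probe sets, FL-Y was thus below both FDC arrays for 6 genes, between them for 2 and above both for 1, where 42.7% of all genes were below both. With the probe sets of each gene averaged, 4 genes were lower by 1 or more, since Plod1 (-0.59) and Plod2 (-0.89) no longer passed 1 and P4ha1 (-1.30) did.

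**Figure D3:**
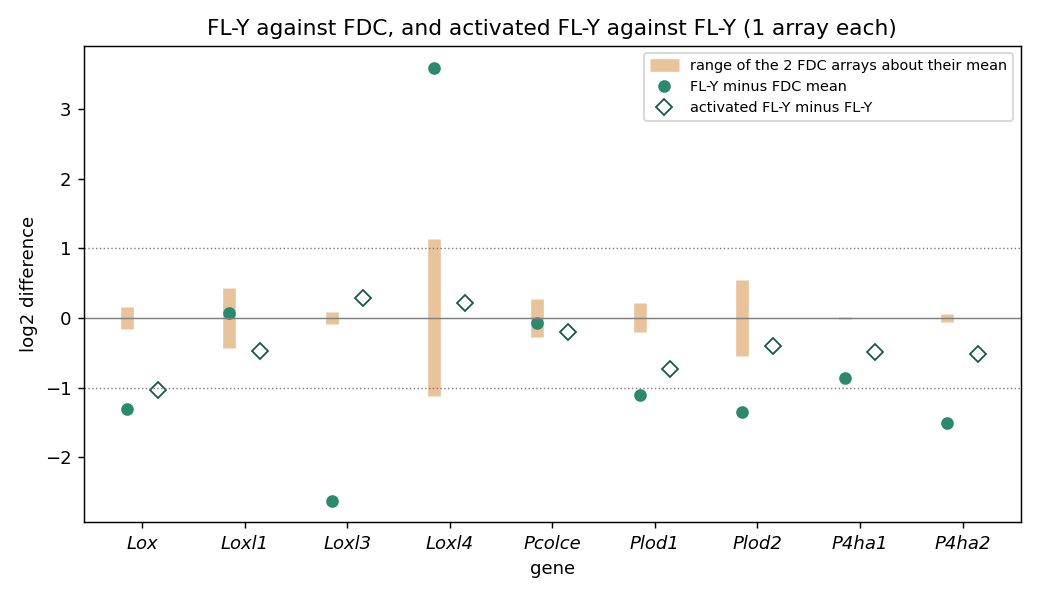
Log2 differences of the 9 genes in FL-Y against the FDC mean (filled circles) and in activated FL-Y against FL-Y (open diamonds), 1 array each; the pale bars span the 2 FDC arrays about their mean, and the dotted lines stand at 1 and -1. Loxl4 is the only gene above 1 (3.59), and Lox the only diamond past -1 (-1.03).

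The FL-Y array after engagement of the lymphotoxin beta receptor was set against that of the resting line. In tissue this receptor maintains FDC and stromal organisation. Of the 9 genes 1 was lower by 1 or more and 0 were higher, while 4.89% of all genes were lower and 1.75% higher. The one gene was Lox, which went from 20996 to 10262 signal units on the representative probe set (-1.03), from 16586 to 7744 on the next (-1.10) and from 69.4 to 8.4 on the dimmest (-1.89). All 3 Lox probe sets were lower on the activated array, the last ending under the background mark.

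By any amount, 7 of the 9 genes were lower after activation, as were 56.2% of all genes, with a median of -0.47 over the genes and -0.06 over all genes. Plod1 went from 1323 to 788.5 (-0.74), P4ha2 from 3669 to 2549 (-0.52), P4ha1 from 5493 to 3903 (-0.49), Loxl1 from 14769 to 10651 (-0.47), Plod2 from 3824 to 2888 (-0.40) and Pcolce from 18002 to 15679 (-0.20). Loxl3 went the other way, from 2467 to 3017 (0.29), and Loxl4 from 725.8 to 842.2 (0.21). With the arrays rescaled to one median, which moved the median of all probe sets from -0.05 to 0.29, Lox differed by -0.68, 0 genes passed 1 and Pcolce turned to 0.15. With the probe sets of each gene averaged, 2 genes passed 1: Lox (-1.34) and Plod1 (-1.22), the latter through its dim probe set, which went from 104.6 to 22.4.

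The rest of the pathway was read through 96 partner genes in 8 lists, of which 89 had a probe set and 78 were tested. Between FDC and BMDC 27 were called higher and 1 lower, and 16 of the 27 were called higher in each of the 4 fits that left out 1 array. Across all genes tested, 5.87% were called higher and 5.4% lower, the share to set beside this total and the list counts below. Sparc (10.3 on BMDC array 1), Mfap5 (6.1 on BMDC array 1), P3h4 (9.9 on BMDC array 2) and Pxdn (10.5 on BMDC array 2) read under the background mark there. The sizes given for them below thus depend on the offset and set no order. Of the genes called, P4ha3, Col1a1, Mfap2, Mfap5 and Aoc3 passed the filter (46.4) through the FDC arrays, both BMDC arrays lying under it. The fibrillar collagens, which these enzymes modify, had 6 of 10 tested genes called higher and 0 lower, with a median of 3.95. Col3a1 (9.14), Col1a1 (8.88) and Col5a2 (8.79) had the widest differences. In FL-Y their list had a median difference from FDC of -0.01 over 8 genes, with 1 lower and 0 higher by 1 or more, beside -1.10 and 5 of 9 for the members. The other lysyl and prolyl modifying genes lay with the collagens, at a median of -0.15 over 10 genes, with 0 lower and 1 higher by 1 or more. Col1a2, for example, was at 50251 and 43768 in FDC and 42141 in FL-Y, whereas Lox was at 58046 and 46763 in FDC and 20996 in FL-Y. The procollagen proteinases had a median of -1.83 over 3 genes, with 2 lower by 1 or more. So were 3 of 11 elastic fibre and matrix genes and 2 of 16 chaperones and export factors. Of 6 other crosslinkers and amine oxidases 2 were lower, the amine oxidases Aoc3 (-1.07) and Aoc1 (-1.08). Of the hypoxia genes 5 of 19 were lower, and of those for copper, iron and ascorbate 1 of 6, with 1 higher. Among all genes 19.6% were lower. The difference between these lists was not tested, FL-Y having 1 array.

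Among the other lysyl and prolyl modifying genes, 4 of 10 tested were called higher in FDC and 0 lower, with a median of 1.47. P3h4, a partner of the lysyl hydroxylation complex, rose by 6.15, and P3h3 by 4.20, P4ha3, a further prolyl 4-hydroxylase subunit, by 2.54 and the prolyl 3-hydroxylase P3h1 by 2.01 (limma adjusted p between 0.0072 and 0.0369). Of these 4 calls only that of P3h4 held without each array in turn. P3h3 lost its call without BMDC array 2 (limma adjusted p = 0.0511), P4ha3 without either BMDC array or FDC array 1 (up to 0.111) and P3h1 without any one of the 4 (up to 0.16). Crtap, which pairs with P3h1, had a difference of 2.07 (limma adjusted p = 0.0725), Plod3 of 0.92, the prolyl 3-hydroxylase P3h2 of 0.36, the isomerase Ppib of 0.18 and the collagen galactosyltransferase Colgalt1 of -1.19, none of them called. P4hb, the shared beta subunit, was at 24598 and 22195 in BMDC and 20398 and 19709 in FDC, a difference of -0.22 (limma adjusted p = 0.775), while the catalytic subunit P4ha2 rose. Colgalt2, at 9.8 and 7.4 in FDC, was under the background mark on all 6 arrays.

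Of the proteinases that trim procollagen, 3 of the 7 genes on the array were tested. Bmp1, the C-proteinase that Pcolce assists, had signals of 125.5 and 142.8 in BMDC, 5504 and 3951 in FDC, 1298 in FL-Y and 778 in activated FL-Y, and rose in FDC by 4.98 ± 0.40 (SE; limma adjusted p = 0.00381). Pcolce2, the relative of Pcolce, rested on unequal arrays, with 4160 and 245.3 in FDC and 4.5 and 7.2 in BMDC, under the background mark, and was not called (5.70, limma adjusted p = 0.0576). The meprin gene Mep1a had a difference of -0.67 and was not called. Tll1, Tll2, Adamts3 and Mep1b were too dim to be tested, with no array above 73.4 signal units.

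Chaperones and export factors of collagen had 9 of 16 tested genes called higher and 0 lower, with a median of 2.51. The collagen-binding glycoprotein gene Sparc rose by 10.17, the collagen chaperone Serpinh1 by 7.07 and the retrieval receptor gene Kdelr3 by 4.44. General chaperones of the endoplasmic reticulum on that list were close to equal, with Hspa5 at 0.12 and Pdia4 at 0.14. Elastic fibre and associated matrix genes had 4 of 8 called higher and 0 lower, among them Mfap5 (10.45), Bgn (8.83) and Fbln5 (4.96; limma adjusted p = 0.0553 without BMDC array 1). Eln, the elastin substrate of Lox and Loxl1, was too dim to be tested, at 118.4 and 26.9 in FDC and 51.0 in FL-Y.

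The list of other crosslinkers and amine oxidases had 2 of 6 called higher and 0 lower. They were the peroxidase Pxdn, which crosslinks basement membrane collagen (4.35), and the amine oxidase Aoc3 (4.19). The call of Aoc3 was lost without either BMDC array. Tgm2, the tissue transglutaminase, was at 13158 and 17389 in BMDC and 5554 and 3318 in FDC, a difference of -1.81 that was not called (limma adjusted p = 0.0726). Of 6 tested genes for the supply of copper, iron and ascorbate 0 were called with limma, and 2 of them had an unadjusted p under 0.05: the transferrin receptor gene Tfrc (-3.00) and the copper chaperone gene Atox1 (-1.15).

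**Figure D4:**
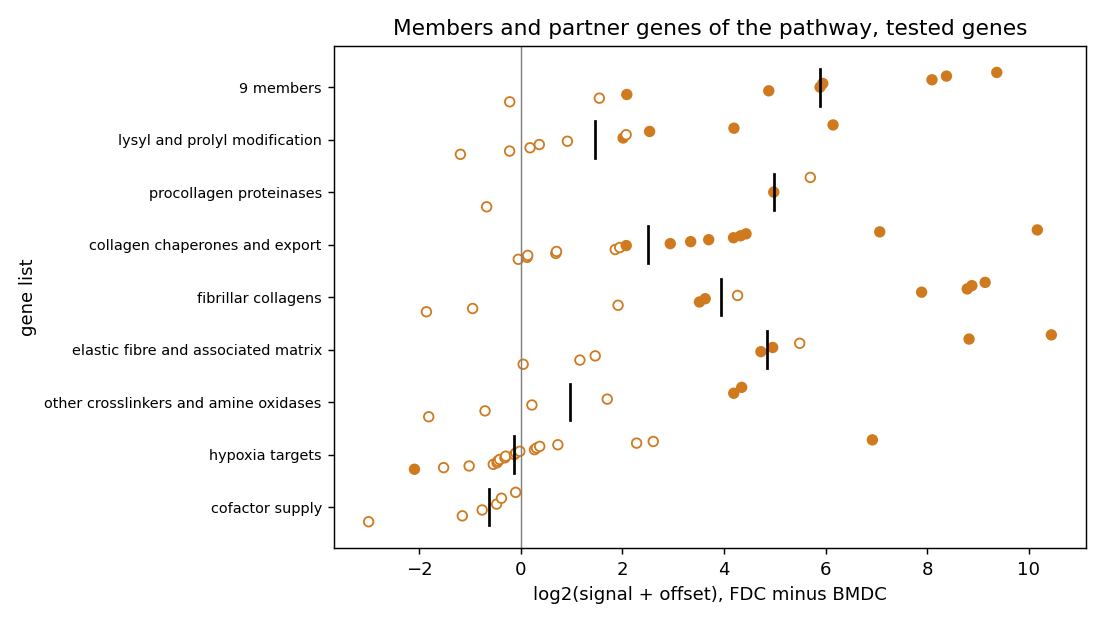
Log2 difference, FDC minus BMDC, of the tested genes in each list, with 1 point per gene; filled points are called by limma (adjusted p under 0.05), open points are not, and the black line is the median of the list. The 9 members have a median of 5.89, the hypoxia list one of -0.13.

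The genes closest in pattern to each member were sought among 12640 others, by the root mean square difference of centred log2 values over the 6 arrays. Pcolce was nearest to the growth regulator Ccn2 (0.31) and to 2 of its procollagen substrates, Col3a1 (0.37) and Col1a1 (0.38). Loxl3 was nearest to Fgf18 (0.30), Bmp1 (0.35) and Rnase4 (0.38), and Loxl1 to Igfbp7 (0.22), Aebp1 (0.23) and the proteoglycan Bgn (0.37). Lox was nearest to Tmem45a (0.42), Sulf1 (0.46) and the fibulin gene Fbln2 (0.50).

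Among the hydroxylases, Plod2 was nearest to Rcn3 (0.33), a protein of the endoplasmic reticulum, Tns2 (0.34) and Medag (0.35), P4ha2 to Lpar1 (0.28), Thbs3 (0.30) and Fam20a (0.32), P4ha1 to Tmc7 (0.11), Adam19 (0.12) and Boc (0.14), and Plod1 to Wipi1 (0.17), Lrp1 (0.18) and Rusc2 (0.20). Loxl4 was nearest to Tdrkh (0.22), Klf5 (0.39) and Pkia (0.42), which also read highest on the FL-Y arrays: Klf5, a zinc finger transcription factor, had 1663 and 1750 there, against 102.1 and 506.1 in FDC. These likenesses rest on the same 6 arrays and describe them only.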

How the data were processed

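Total RNA was labelled with biotin (per the labels) and measured on 1 array per sample. The deposited values are linear signal intensity, 1 per probe set; the 2% trimmed mean was 500 on all 6 arrays, so the authors had scaled them. Neither the program nor its background step is given in the sources used here. In GEO's platform annotation 34945 probe sets carried 1 gene, 932 carried several (not used for names) and 9160 were not listed.

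Values were analysed as log2(signal + 14.2), the median 20th percentile of the arrays, which understates changes of dim genes. Probe sets with a mean above the 40th percentile over the FDC and BMDC arrays (a signal of 46.4; 27022 probe sets) were tested with limma 3.58.1 in R 4.3.3 (2 residual, 3.35 prior degrees of freedom), two-sided, Benjamini-Hochberg over all tested; 64 control probe sets were left out. A gene is represented by its brightest probe set. FL-Y differences carry no test, and the 40th percentile filter was applied within the arrays compared. The number of arrays limits the precision.

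Named are all members, every gene of the modification and proteinase lists, up to 3 called genes of each other list with the largest difference, and the 3 nearest genes per member; Cr2, Vcam1, Prnp, Cxcl13, Fcgr2b, Clu, Mfge8, Pgk1, Ldha, Vegfa, Hspa5, Pdia4, Eln, Col1a2, Tgm2, Tfrc and Atox1 were added after their values were seen. The mast cell and T cell genes, Mfap2, Aoc1, Hk2, Slc2a1, Ddit4, Egln1 and Pfkl were likewise named after their values were seen. Members and lists were chosen with earlier results of these data known. The alternatives were an offset of 52.2 or none with a floor at 3.1, quantile normalization, one median, other filters, averaged probe sets, leaving out each array and the array number as a block.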

Additional observations from a re-analysis of the deposited data

How the results depend on the processing

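With 2 arrays per group, limits come from the spread between arrays and from signals near background. Over 12 alternatives Lox, Loxl1, Loxl3, Pcolce, Plod2 and P4ha2 were called higher in FDC each time. The members called higher numbered 6 to 8 and those called lower 0 under every alternative; leaving out each array gave 6 members and 19 to 29 partner genes, beside 7 and 28. Plod1 lost its call with a floor in place of the offset (2.11, limma adjusted p = 0.0753) and with no filter (2.09, limma adjusted p = 0.102), as well as without each array. Loxl4, at -0.22, ranged from -0.40 to 0.91 in the 3 fits without 1 array that kept it, the positive value being that without FDC array 1; without FDC array 2 it did not pass the filter. All probe sets called numbered 2413, against 1443 with the floor, 1433 with no filter and 1312 to 2090 without 1 array; the cause was not tested.

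Rescaling to one median left 2 members lower in FL-Y than in FDC by 1 or more, beside 5, and 0 changed by activation, beside 1. Averaging probe sets gave 4 lower than in FDC and 2 changed by activation. Without 1 FDC array, 3 to 5 members were lower in FL-Y. The array number as a replicate block gave 7 members called higher, 0 lower and 29 partner genes; the number-paired deviations correlated at r = 0.199, and nothing in the labels says that the numbers pair the arrays. The control ratio of labelling over hybridisation was 0.0618 and 0.0666 on the first BMDC and FDC arrays and 0.284 and 0.182 on the second. Differences within these pairs are therefore given beside the main values. On the FL-Y and activated FL-Y arrays the ratio was lower, at 0.0323 and 0.0393. Its part in the FL-Y differences was not tested.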
